A study of Mus musculus with 2 samples.

Results

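A set of 1378 chromatin regions lay within 1 kb of an end of a gene and held a peak in the control list and none in the knockout list. They were chosen from the peak lists of 2 ATAC-seq libraries: peaks of both lists that shared at least 1 bp were merged into 28403 autosomal regions, and those with control peaks alone, near either end of any RefSeq gene (assembly GRCm38.p6, coordinates of mm10), were kept. The absence from the knockout list is therefore how they were selected, not a result. The knockout library came from Vav1-iCre Brd9fl/fl fetal liver cells and the control library from Brd9fl/fl cells, both CD45.2(+), of the strain C57BL/6, at stage E14.5 and sorted as lineage-negative and c-Kit-positive. Both genotypes carried the floxed Brd9 alleles, and only the knockout carried the Cre recombinase, which is driven by Vav1 regulatory DNA and acts in blood cells. The knockout is replicate 2 and the control replicate 1 in the labels, each is a single library, and the labels do not say how many embryos went into each. No p-value was computed, and every difference below is one between these libraries, with intervals that cover counting error only.

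ATAC-seq uses a transposase to cut and tag open DNA, so a peak marks a stretch free enough of nucleosomes to be entered. The start of a gene usually has such a stretch at its promoter. Promoters rich in CpG, the dinucleotide that carries most DNA methylation in mammals, are commonly open in many cell types, whereas CpG-poor promoters are more often open only where the gene is used. BRD9 is the bromodomain subunit of the non-canonical BAF complex, an ATP-driven machine that moves nucleosomes.

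The strongest members included promoters of both kinds, and 4 of the 8 whose summit lies inside the promoter window of their coding gene are shown, picked to span CpG content, with RefSeq sequence of GRCm38.p6 from 250 bases before the start to 50 after it, 5′ to 3′ on the strand of the gene, with every CpG in capitals. The Usp12 window (chr5:146794907-146795206, minus strand) holds 37 CpG, the Aff4 window (chr11:53350517-53350816, plus strand) 44, the Eps8l1 window (chr7:4460447-4460746, plus strand) 14 and the Hbb-bs window (chr7:103827879-103828178, minus strand) 2.
Usp12 promoter: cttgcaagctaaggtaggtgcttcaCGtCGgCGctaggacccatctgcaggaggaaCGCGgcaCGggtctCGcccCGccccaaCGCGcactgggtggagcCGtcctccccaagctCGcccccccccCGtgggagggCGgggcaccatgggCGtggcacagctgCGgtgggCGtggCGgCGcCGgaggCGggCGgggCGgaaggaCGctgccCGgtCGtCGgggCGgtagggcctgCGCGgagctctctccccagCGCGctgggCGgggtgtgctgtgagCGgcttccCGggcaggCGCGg
Aff4 promoter: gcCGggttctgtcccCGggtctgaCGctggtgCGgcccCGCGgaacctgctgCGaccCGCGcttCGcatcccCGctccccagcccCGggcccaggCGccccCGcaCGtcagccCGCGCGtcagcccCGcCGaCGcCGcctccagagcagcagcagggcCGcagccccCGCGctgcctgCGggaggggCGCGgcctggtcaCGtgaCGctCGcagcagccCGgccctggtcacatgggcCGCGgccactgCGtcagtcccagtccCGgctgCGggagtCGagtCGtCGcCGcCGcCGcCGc
Eps8l1 promoter: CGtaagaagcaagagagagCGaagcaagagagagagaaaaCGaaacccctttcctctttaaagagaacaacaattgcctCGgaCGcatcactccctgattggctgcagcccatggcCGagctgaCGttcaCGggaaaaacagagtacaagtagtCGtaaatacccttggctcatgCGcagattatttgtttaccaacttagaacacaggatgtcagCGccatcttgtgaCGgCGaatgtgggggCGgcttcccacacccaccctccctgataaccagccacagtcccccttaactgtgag
Hbb-bs promoter: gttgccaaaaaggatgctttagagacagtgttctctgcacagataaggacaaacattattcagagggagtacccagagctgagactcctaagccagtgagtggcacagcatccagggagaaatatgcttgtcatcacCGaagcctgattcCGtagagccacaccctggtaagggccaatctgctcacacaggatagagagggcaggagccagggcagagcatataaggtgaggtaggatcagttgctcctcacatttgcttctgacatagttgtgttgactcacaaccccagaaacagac

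The knockout list held 22348 peaks and the control list 25330, with medians of 28 and 37 summit reads, the number of extended reads that cover a peak's highest point. The genome-wide background was 0.971 reads in the knockout and 1.52 in the control library, a relative depth of 0.640, and the lowest summit read number was 6 in the knockout and 7 in the control list. Of 9 autosomal marker genes of blood stem and progenitor cells, 7 had a gene-end region in each list, among them Kit with 65 knockout and 109 control reads and Myb with 25 and 50, while Gata2 and Cd34 had none in either. Of 5 hepatocyte markers, 1 was listed in each library (Apoa2, 217 and 281 reads) and Alb, Afp, Ttr and Hnf4a had no gene-end region. Endothelial markers were listed for 1 of 4 genes in the knockout and 2 of 4 in the control, macrophage markers for 1 of 3 in each, and T-cell and B-cell markers for none of 3 each in the knockout and 1 of 3 each in the control. The part of cell composition in the results was not tested.

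Over all 11642 gene-end regions of the control list, 11.8% were absent from the knockout list and make up the members. For comparison, 7.25% of 11066 gene-end regions of the knockout list were absent from the control list (802 regions), and 27% of 24690 autosomal control-list regions were absent from the knockout list. Counted by gene, 1592 of 14209 genes with a gene-end region in the control list had at least 1 member (11.2%), and 317 of these also had a shared region at an end. Members came from every autosome, with shares from 9.77% on chromosome 19 to 13.6% on chromosome 2. They made up 20.67% of the 6667 control-only autosomal regions, next to 3587 regions inside genes and 1702 intergenic ones. When only the 11174 top-ranked peaks of either list were merged, 399 gene-end regions were control-only, 5.18% of those listed. With this cut, a region whose knockout peak ranked lower also counted as control-only.

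Most members were weak. Their control summits had 7 to 284 reads, with a median of 15 (quartiles 11 and 23), against a median of 100 in the 10264 gene-end regions shared by both lists. The 802 knockout-only gene-end regions had a median of 11 knockout reads. The authors' fold enrichment had a median of 4.78 at members and 10.7 at shared gene ends. After scaling by relative depth, 1175 members (85.3%, exact 95% interval 83.3 to 87.1) had enough reads to pass the lowest −log10 p of the knockout list, 3.47, against 99.5% of shared gene-end regions. The other 203 members would not have reached it at the depth of the knockout library. Of all control-list gene-end regions that passed, 10.3% were absent from the knockout list. This share was 2.22% at 20 or more scaled reads (196 of 8831), 0.673% at 40 or more (46 of 6834) and 0.187% at 80 or more (8 of 4279).

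Absence from the knockout list went with summit height, and at every height it was lower at gene ends than elsewhere. Among gene-end regions with 7 to 10 control reads, 77.5% (72.6 to 81.9) were absent, against 84.4% inside genes and 84.6% between genes. With 16 to 23 reads the share was 35.3% (32.3 to 38.4) at gene ends, against 49.6% (47.2 to 51.9) inside genes and 47.0% (43.5 to 50.5) between genes. With 41 to 80 reads it was 4.69% (3.85 to 5.65), against 9.72% (8.28 to 11.3) and 11.8% (9.14 to 14.8). Above 80 reads 19 of 5934 gene-end regions were absent (0.320%, 0.193 to 0.4996), against 2.15% of 1253 regions inside genes (1.42 to 3.12) and 3.98% of 352 intergenic regions. The intervals of gene ends and of the other places did not overlap from 11 reads upward. At 7 to 10 reads that of gene ends (72.6 to 81.9) overlapped that of intergenic regions (81.2 to 87.5) but not that of gene bodies (82.0 to 86.7).

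**Figure D1:**
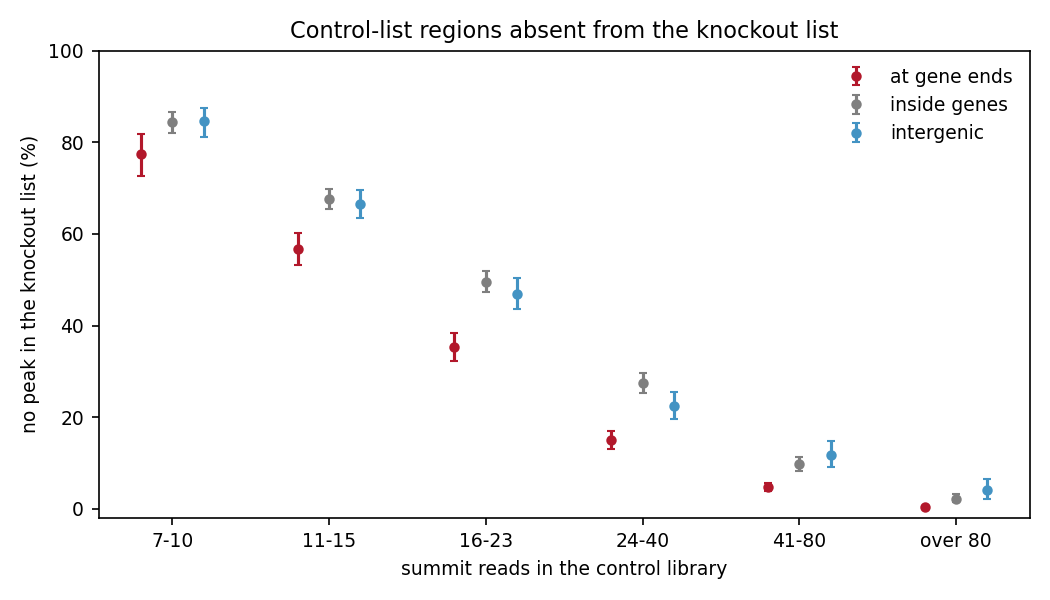
Share of control-list regions with no knockout peak (vertical axis, percent) by control summit reads (horizontal axis), at gene ends (red), inside genes (grey) and between genes (blue), with exact 95% intervals. All shares are lower toward more reads, from 77.5% to 0.320% at gene ends, and the red points are the lowest in each band.

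The opposite selection gave a like curve at low reads and a lower one at high reads. Of knockout-list gene-end regions, 58.4% (53.6 to 63.0) with 7 to 9 knockout reads were absent from the control list, close to 56.7% (53.2 to 60.2) absent from the knockout list at 11 to 15 control reads, which is the same band after depth scaling. In the band of 26 to 51 knockout reads, 32 of 2311 regions were absent from the control list (1.39%, 0.949 to 1.95), against 105 of 2239 absent from the knockout list at 41 to 80 control reads. Above that, 3 of 5818 knockout-list regions were absent from the control list and 19 of 5934 control-list regions from the knockout list. The control library was the deeper one, so a region was easier to list there, and the part of depth in this gap was not tested.

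Members lay less often at gene starts than shared gene-end regions. Of 1348 members on chromosomes with promoter annotation (all autosomes but 18), 53.9% (51.2 to 56.6) were within 1 kb of a gene start, 20.03% only within reach of a 3′ end and 26.0% at genes whose strand was not known. The shared gene-end regions had 77.0% (76.2 to 77.8), 5.84% and 17.1%, and the knockout-only ones 51.2%, 22.8% and 26.0%. Read the other way, 8.63% (8.04 to 9.25) of control-list regions at gene starts were absent from the knockout list, against 31.6% (28.5 to 34.9) at 3′ ends alone. Part of this gap went with height, because at 24 to 40 reads the shares were 13.4% (11.2 to 15.8) at starts and 25.4% (19.1 to 32.7) at 3′ ends, and at 41 to 80 reads 3.93% (3.03 to 5.01) and 10.3% (6.33 to 15.7). In the other bands the share was also lower at starts, but the intervals overlapped. At 16 to 23 reads, for example, the shares were 31.7% (27.9 to 35.7) and 41.1% (33.0 to 49.5).

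The summits of members were also less concentrated on the start than those of shared regions. Within 250 bp of an annotated start lay 27.6% (25.2 to 30.1) of member summits and 61.1% (60.1 to 62.1) of shared ones. In the band of 16 to 23 reads these were 25.7% (21.1 to 30.7) and 35.4% (31.6 to 39.3), and in the band of 24 to 40 reads 35.2% (28.6 to 42.2) and 44.4% (41.5 to 47.3). At 11 to 15 reads the intervals overlapped, with 26.8% (22.7 to 31.2) and 31.6% (26.6 to 36.9). Of knockout-only gene-end summits, 23.02% (20.08 to 26.16) lay this close to a start, so a low share was not particular to members. By knockout reads their share was 29.11% at 11 to 15, 29.73% at 16 to 23 and 26.32% at 24 to 40. In these bands their intervals overlapped those of members and those of shared regions, which were banded by control reads. The bands were not scaled for depth.

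**Figure D2:**
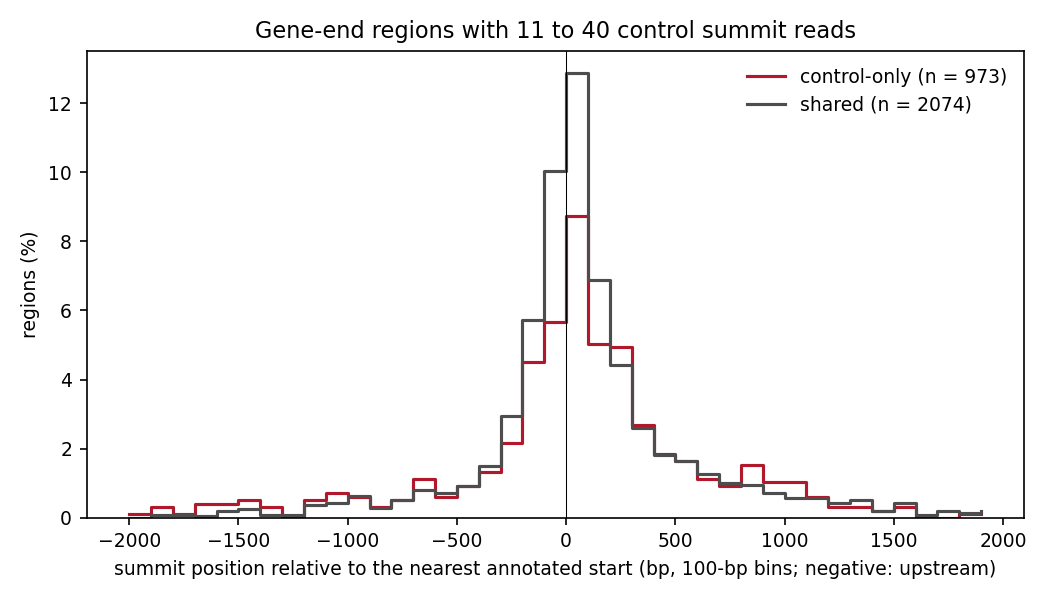
Position of control summits relative to the nearest annotated start (horizontal axis, bp in 100-bp bins, negative is upstream) as a percent of regions (vertical axis), for 973 members (red) and 2074 shared gene-end regions (grey) with 11 to 40 control reads; regions beyond 2000 bp count in the total and are not drawn. Both peak in the first 100 bp after the start, with 8.74% of members and 12.9% of shared regions.

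The kind of gene differed as well. Each region was given 1 type, protein-coding where any coding gene end lay within 1 kb, and a non-coding type only where none did. Regions at protein-coding gene ends were absent from the knockout list in 9.44% of cases (939 of 9947, 8.87 to 10.03), those at long non-coding RNA genes in 26.0% (335 of 1290, 23.6 to 28.5), pseudogenes in 33.9% (61 of 180, 27.0 to 41.3) and miRNA genes in 32.7% (17 of 52, 20.3 to 47.1). Transfer RNA genes had 5.16% (5 of 97, 1.70 to 11.6), but 61 of those 97 regions had over 80 reads, and at 41 to 80 reads 3 of 19 were absent (15.8%, 3.38 to 39.6). The coding and long non-coding shares came closer at like height, with 34.0% (30.4 to 37.6) and 36.4% (30.0 to 43.1) at 16 to 23 reads, and 3.87% (3.05 to 4.83) and 8.81% (5.67 to 12.9) at 41 to 80 reads. Protein-coding genes were at hand for 68.1% of members, 87.8% of shared and 67.0% of knockout-only gene-end regions.

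Promoters of members held fewer CpG. Members overlapped 552 promoter windows with a median observed-over-expected CpG of 0.590, against 0.807 over 9851 windows of shared regions, 0.564 over 281 windows of knockout-only regions and 0.389 over all 31396 autosomal windows. A ratio of at least 0.6 was found in 48.6% (44.3 to 52.8) of member windows and 80.8% (80.1 to 81.6) of shared ones. Of control-list regions at such CpG-rich windows, 3.93% were absent from the knockout list, against 14.8% at CpG-poor windows and 23.7% where no window was overlapped. Between rich and poor windows this gap was smaller at like height, and the intervals overlapped in each of the 6 bands. At rich and poor windows 60% and 74.6% were absent at 7 to 10 reads, 45.9% and 55.9% at 11 to 15, and 27.6% (21.7 to 34.2) and 27.4% (21.6 to 33.8) at 16 to 23. At 24 to 40 reads 9.81% (7.27 to 12.9) and 13.6% (9.73 to 18.2) were absent, at 41 to 80 reads 2.60% and 3.58%, and above 80 reads 0.196% and 0.670%. The share was thus lower at rich windows in 5 of the 6 bands. Regions without a window stood above both at 16 to 23 reads, with 42.0% (37.7 to 46.4), and at 41 to 80 reads, with 8.44% (6.56 to 10.7). In the other bands their interval overlapped that of poor windows. Above 80 reads their share, 0.636%, was below that of poor windows.

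**Figure D3:**
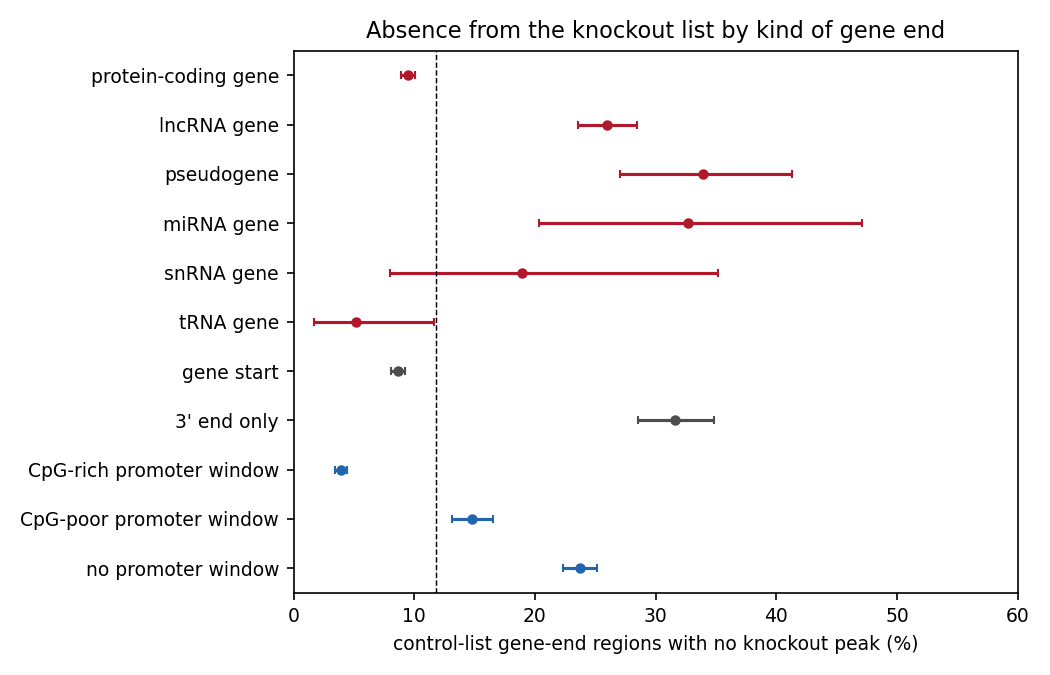
Percent of control-list gene-end regions with no knockout peak (horizontal axis) by type of gene (red), end of the gene (grey) and CpG content of the promoter (blue), with exact 95% intervals; the dashed line is the share over all gene ends, 11.8%. The share at 3′ ends was 31.6%, against 8.63% at starts.

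Motif letters were counted on both strands of the same windows, as a description; those of ETS, Sp/KLF, NRF1 and the E box contain CG and so depend on CpG content. The ETS letters CCGGAAG stood in 9.06% of member windows (6.80 to 11.8), 21.1% of shared windows (20.3 to 21.9) and 9.004% of all windows. The Sp/KLF letters GGGCGGG stood in 38.4% of member, 51.5% of shared and 25.8% of all windows. Among CpG-poor windows alone, ETS letters stood in 5.28% of 284 member windows (2.99 to 8.56) and 11.5% of 1887 shared windows (10.04 to 13.0), with 3.40% over all CpG-poor windows, and Sp/KLF letters in 21.1% (16.5 to 26.3), 30.6% (28.6 to 32.8) and 9.75%. The GATA letters AGATAA, the site of the blood GATA factors, stood in 8.70% of member windows, 5.59% of shared and 11.2% of all, and in 12.7% and 12.1% of CpG-poor member and shared windows. NRF1 letters CATGCGC (3.62%, 8.09% and 3.91% of member, shared and all windows) and YY1 letters AAGATGG (3.44%, 7.54% and 6.38%) were rarer in member than in shared windows, whereas the CTCF core GGNGGCAG was found in 19.2%, 15.2% and 12.7%. RUNX letters TGTGGTT (5.25%, 3.43% and 5.32%), AP-1 letters TGACTCA (5.25%, 2.77% and 5.26%), TATAAA (7.25%, 5.75% and 13.6%), the NFY letters CCAAT (32.3%, 39.3% and 37.3%) and the E box CACGTG (9.60%, 11.3% and 7.14%) completed the 11 motifs. The 281 knockout-only windows held the letters of ETS in 6.41%, Sp/KLF in 37.4%, GATA in 6.41%, NRF1 in 3.56%, YY1 in 4.63% and the CTCF core in 18.5%. RUNX letters stood in 5.69% of them, AP-1 in 5.69%, TATAAA in 6.41%, NFY in 31.7% and the E box in 6.76%. Motif shares were not matched for summit height. Windows can hold several motifs: of the 48 member windows with GATA letters, 10 also held Sp/KLF letters and 4 the E box.

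Strong members were narrow. The median width was 561 bp (quartiles 460 and 720) for members and 958 bp (767 and 1178) for the control peaks of shared gene-end regions. At 7 to 10 reads widths were alike, 496 and 475 bp. The gap widened with height, to 590 bp for members and 820 bp for shared peaks at 24 to 40 reads, 590 and 909 bp at 41 to 80 reads, and 490 and 1032 bp above 80 reads. Knockout-only gene-end regions were narrow too, with a median of 518 bp (443 and 639). At 24 to 40 knockout reads 38 of them had a median of 507 bp. The shortest peak in either list had 376 bp. Whether a narrower site was left out of the knockout list through its width was not tested.

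**Figure D4:**
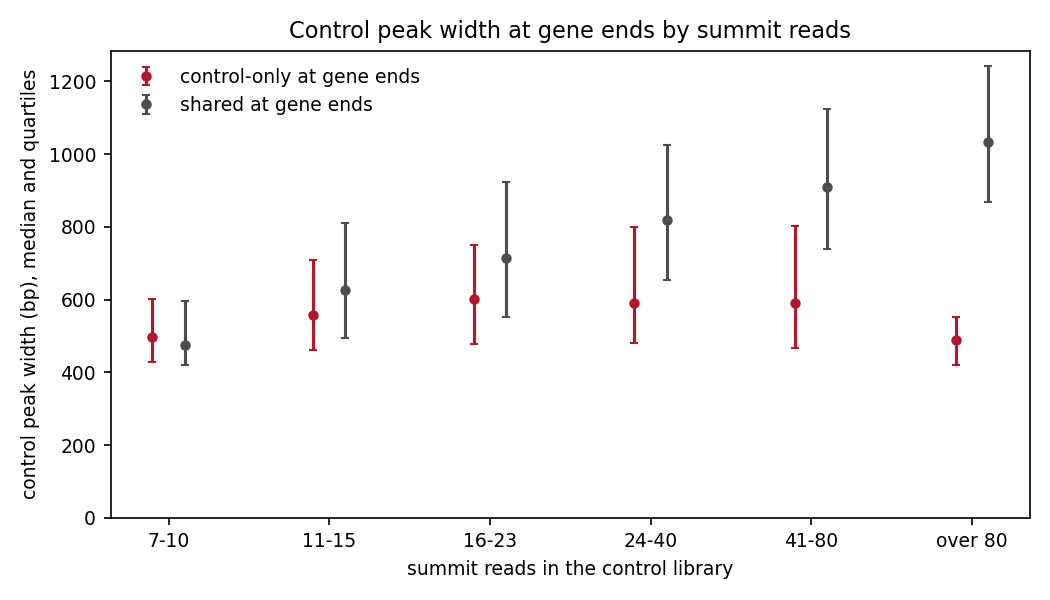
Control peak width (vertical axis, bp; points are medians, bars quartiles) by control summit reads (horizontal axis) for members (red) and shared gene-end regions (grey). Members stay between 490 and 601 bp in every band, while shared peaks reach 1032 bp.

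Of the 25 members with the highest −log10 q, 16 lay at a gene start, 3 at a 3′ end and 6 at genes of unknown strand, 19 of them at protein-coding genes. Their summits had 49 to 195 control reads, and 15 were narrower than 600 bp. A knockout peak lay within 1 kb of 2 of them and beyond 10 kb of 10, and 3 lay at a gene with a shared region at an end. None of these facts about height is a result, since the rank came from the same list.

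First stood the region at the joint start of Usp12, a deubiquitinase gene, and the long non-coding RNA gene 1700041I07Rik (chr5:146794897-146795391), with no knockout peak and 158 control reads (134 to 185). Scaled to knockout depth this is 101 reads, and the nearest knockout peak was 28602 bp away. Ralgps1, a guanine nucleotide exchange factor gene for Ral, had no knockout peak and 80 control reads (63.4 to 99.6) at its start, with the nearest knockout peak 31253 bp away. Phc2, a Polycomb repressive complex gene, had no knockout peak and 55 control reads, and Gab2, an adaptor gene of cytokine receptor signalling, none and 65, with the nearest knockout peaks 33735 and 109975 bp away. These regions stood alone, without a knockout peak in their neighbourhood.

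Several regions at ends of coding genes followed. Eps8l1, a gene of the EPS8 family of actin regulators, had no knockout peak and 68 control reads with its summit 8 bp after the start. Plxnd1, a semaphorin receptor gene, had none and 68 with a 380-bp peak whose summit was 228 bp before the start, and Cdc25b, a cell-cycle phosphatase gene, none and 58 with the summit 72 bp before the start. Neu3, the plasma membrane sialidase gene, had none and 82, Edem2, a gene of protein quality control in the endoplasmic reticulum, none and 51, and A430033K04Rik none and 101. Pycrl, named for its likeness to a proline synthesis enzyme, had none and 76, Rab36, a small GTPase gene, none and 49, and Sik1, a salt-inducible kinase gene, none and 65. Pycrl, Rab36 and Sik1 are genes of unknown strand, so which end these regions lay at is not known.

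The CpG content of the 8 members of this rank whose summit lay in the window of their coding gene ranged widely. Aff4, a scaffold gene of the super elongation complex, had 44 CpG and an observed-over-expected ratio of 0.956, Usp12 0.872, Plxnd1 0.723, Eps8l1 0.713, Cdc25b 0.625 and Phc2 0.613. A430033K04Rik had 5 CpG and a ratio of 0.229, and Hbb-bs 2 CpG and 0.108. The Hbb-bs window printed above also held the GATA, AP-1 and NFY letters.

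Hbb-bs, an adult beta-globin gene, had no knockout peak and 50 control reads (37.1 to 65.9) in a region that spanned its start, with the summit 54 bp before it, and its near-identical copy makes this count uncertain. Lrrc17, a leucine-rich repeat protein gene, had none and 55 at its 3′ end, with the nearest knockout peak 70334 bp away. A region between the 3′ ends of Ppfia3, a liprin gene, and Hrc, a calcium-binding protein gene, had none and 85, but a shared region with 105 knockout and 74 control reads lay 314 bp away. Of the non-coding genes in this rank, Gm51767 had no knockout peak and 72 control reads, Kif16bos none and 87, Gm38972 none and 79, Gm33934 none and 50, and Gm32293 none and 59. Gm33934 was the most isolated, with no knockout peak within 600147 bp.

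**Figure D5:**
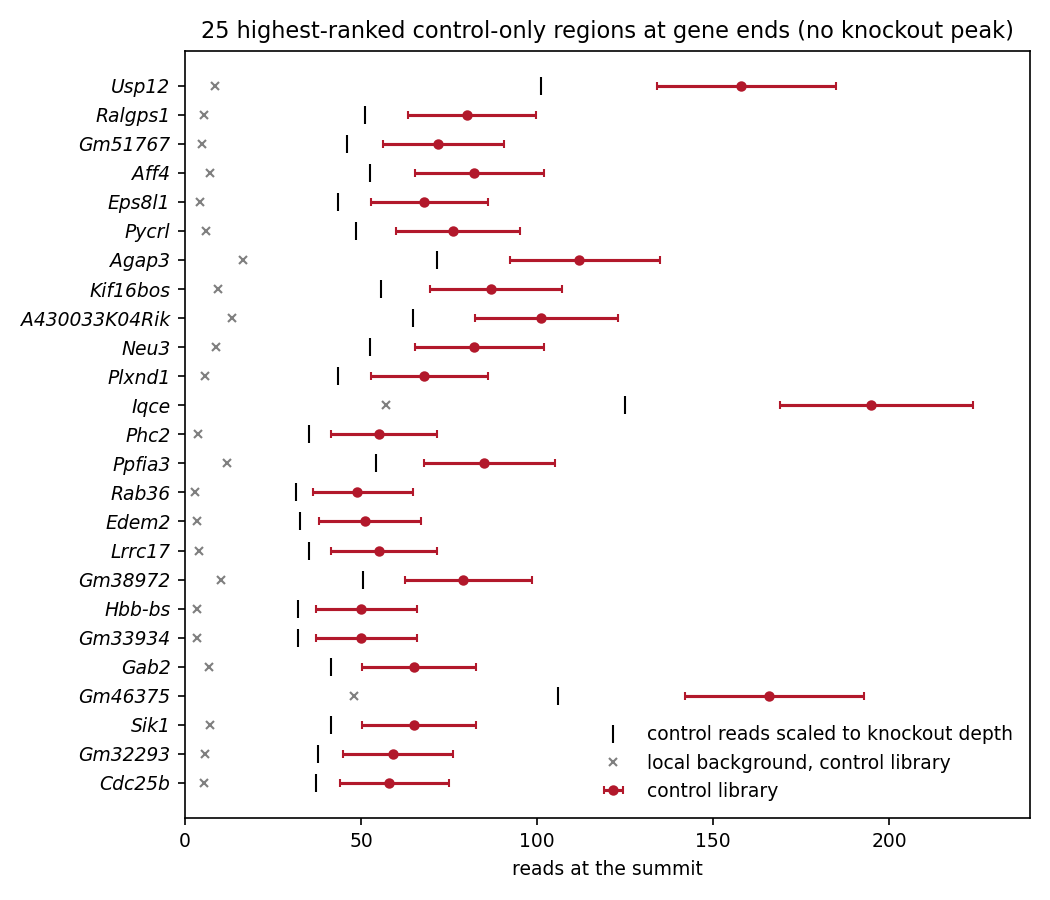
Control summit reads (red points, exact Poisson 95% intervals) of the 25 highest-ranked members, with the reads scaled to knockout depth (black ticks) and the local background of the control library (grey crosses), all on the horizontal axis in reads. None has a knockout peak, and the grey crosses of Iqce (57.2 reads) and Gm46375 (47.9 reads) lie far right of the others.

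Height alone did not mark isolated sites. Of the 19 members with over 80 reads, 13 lay where the local background was at least 10 times the genome-wide one, which was true of 45 members in all and of 26.9% of shared gene-end regions. Each of these 45 had a knockout peak within 5 kb, against 21.5% of the other 1333 members. Reads of nearby peaks can enter the local background, so this contrast may follow from how the 45 were picked. The highest was H2ac10, a histone H2A gene, with no knockout peak and 284 control reads over a background of 146, a fold of 1.93, and a shared region 501 bp away with 304 knockout and 765 control reads; histone genes have close copies, so the count is uncertain. Iqce, an IQ-motif protein gene, had none and 195 next to a shared region of 509 and 702 reads, Zfp36, the mRNA decay factor gene, none and 130 over a background of 38.3, and Dtymk, the thymidylate kinase gene, none and 129 beside 332 and 486. Mir22 had none and 127 beside 536 and 795, and Mir1894 none and 132 beside 442 and 584. Agap3 (112 reads), Gm46375 (166), a small nucleolar RNA gene (101), H2az1 (99), Akt1s1 (89) and Lin7b (82) were also among them. The 6 of the 19 with a lower background were Usp12, A430033K04Rik, Kif16bos, Ppfia3, Aff4 and Neu3.

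Some members had a knockout peak close by that did not touch them. The nearest knockout peak lay within 200 bp of 9 members, within 1 kb of 116 (8.42%, 7.01 to 10.01) and within 10 kb of 603 (43.8%), with a median distance of 13234 bp. The closest were at Tmed6, 6 bp from a knockout peak with 8 control reads, Fnbp1l, 9 bp with 18 reads, and Sema6b, 21 bp with 10 reads. On the other side of this limit, Prtn3, with 11 knockout and 23 control reads, was counted as shared on 8 bp of overlap, Irf1, with 10 and 11, on 9 bp, and Vps54, with 13 and 12, on 10 bp. At the 1 kb limit from gene ends, Nol4l at 993 bp (70 reads), Gm52677 at 995 bp (18) and Gm35338 at 996 bp (16) were just inside, and Gm41979 at 1006 bp (10), Osbpl5 at 1009 bp (16) and Gm35748 at 1010 bp (14) just outside.

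At 50 genes a member and a knockout-only region lay at ends of the same gene, 3.14% of the 1592 genes with a member and 5.51% of the 908 with a knockout-only gene-end region. At 25 of them the pair was within 1 kb. Lgals1, the galectin-1 gene, had a knockout-only region of 47 knockout reads and a member of 52 control reads 744 bp apart. Dll4, a Notch ligand gene, had 20 knockout reads and 32 control reads in neighbouring regions with 26 bp between them, and Aff4 had 16 and 82 with 423 bp between them. Nfic, a nuclear factor I gene, had 21 and 31 at 913 bp. For such genes each list held a peak near an end of the gene. Whether a pair is 1 moved peak or separate sites was not tested. The 50 are counted by gene, so a pair can count at neighbouring genes, as at Dll4 and Gm14207. At Alad, a haem synthesis gene, 51 knockout reads and 18 control reads lay 12784 bp apart, and at Kdr, a vascular endothelial growth factor receptor gene, 17 and 15 lay 43944 bp apart, so these pairs did not lie at 1 site.

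A shared region at an end of the same gene accompanied 298 members (21.6%, 19.5 to 23.9). The other 1080 members lay at genes with no shared end region. No gene had more than 2 members, and 17 had 2. Agap3, an Arf GTPase-activating protein gene, had members of 112 and 33 control reads on either side of its start, Lrrc29 of 45 and 37, and Mvb12b, an ESCRT subunit gene, of 32 and 21. Nr1d1, the circadian repressor gene, had 79 at its start, shared with Gm31862, and 23 at its 3′ end, and Gm31862 had 24 at its own 3′ end. Nudt19 had 79 and 14, Sowaha 39 and 23, 4930553P18Rik 19 and 14, Gm14207 43 and 32, and Sh3glb1, a membrane curvature protein gene, 47 and 10. None of these regions had a knockout peak.

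By pathway, several blood lists had shares above the 11.2% of all genes listed in the control, with intervals that included it. Of 35 erythroid genes with a control-list gene-end region, 7 had a member (20%, 8.44 to 36.9): beside Hbb-bs, these were Slc4a1, the band 3 anion exchanger gene, with no knockout peak and 62 control reads, Kel, a blood group antigen gene, with 19, Alad with 18, Tal1 with 13, Slc25a37, the mitochondrial iron importer gene, with 11, and Ank1, the red cell ankyrin gene, with 7. Of these, only the Hbb-bs member was placed at a gene start. Those of Kel, Alad and Tal1 lay at 3′ ends, and Slc4a1, Slc25a37 and Ank1 are genes of unknown strand. A shared end region was also present at Kel (21 knockout and 75 control reads), Tal1 (61 and 214) and Ank1 (31 and 32). A knockout peak lay 244 bp from the Kel member and 610 bp from the Slc4a1 member. Of 19 stem and progenitor genes 3 had a member (15.8%, 3.38 to 39.6), Hoxa5 with 24 control reads, Lmo2 with 15 beside a shared region of 20 and 62, and Tek with 12. Of 14 granulocyte and monocyte genes 3 had one (21.4%, 4.66 to 50.8), Plek with 16, Tlr2 with 15 and Fes with 10, the last beside a shared region of 71 and 33 reads. The Fes member lay at the 3′ end, and Lmo2 is a gene of unknown strand. Knockout-only gene-end regions lay at 5 erythroid, 2 stem and progenitor and 2 granulocyte and monocyte genes. Over all genes, 908 had a knockout-only gene-end region and 1592 a member.

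Lymphoid genes had 3 members among 7 listed B-lymphoid genes (42.9%, 9.90 to 81.6). Ebf1, which encodes a B-lineage transcription factor, had no knockout peak and 33 control reads (22.7 to 46.3), Igll1, a surrogate light chain gene, none and 21, and Irf4, an interferon regulatory factor gene, none and 18. The nearest knockout peaks were 35126, 4922 and 36389 bp away. Of 4 T and NK genes Cd4 had a member, with 9 reads. No member lay at 8 megakaryocyte genes (exact upper limit 36.9%), 2 mast cell and basophil genes (84.2%), 2 macrophage genes (84.2%) or 4 hepatocyte genes (60.2%). Of 4 endothelial genes Kdr (15) and Eng (9), and of 5 stromal genes Lhx2 (20) and Col1a2 (12), had one. Knockout-only gene-end regions lay at 2 megakaryocyte, 2 hepatocyte, 2 endothelial and 1 T and NK gene. The B-lymphoid, mast cell and basophil, macrophage and stromal lists had none. Of the genes named here, Cd4, Eng, Fes and Ank1 were below the knockout floor after scaling.

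Chromatin and cell-cycle genes were mostly shared, as were 12934 of all 14209 genes with a gene-end region in the control list. All 27 listed BAF complex genes had a shared end region, and Smarcd1 alone also had a member, of 20 control reads at its 3′ end beside a shared region of 106 knockout and 102 control reads. Of 21 p53 and cell-cycle genes, Rb1, the retinoblastoma gene, had a member of 26 reads beside a shared region of 24 and 38, and Ccna2, the cyclin A2 gene, one of 13 beside 269 and 511. Of 24 Notch, Wnt and TGF-beta genes Dll4 had one, and of 17 deubiquitinase genes Usp12 and Usp16, Usp16 with 7 reads beside 48 and 55. Knockout-only gene-end regions lay at 3 Notch, Wnt and TGF-beta genes and 1 BAF complex gene. The p53 and cell-cycle and the deubiquitinase lists had none.

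The gene families gave a wide range of shares. Hox cluster genes had the highest of those with at least 5 listed genes, 5 of 6, from 4 regions: a region at Hoxa5 and Hoxa6 with 24 control reads, Hoxa3 with 12, Hoxd3os1, a non-coding antisense gene, with 11, and Hoxc10 with 10. None had a knockout peak. Hoxc6 was shared, with 15 knockout and 29 control reads, and Hoxa9 and Hoxd12 had knockout-only regions with 19 and 6 reads, so Hox regions listed in 1 library alone stood on both sides. Genes named Gm had 460 of 2164 (21.3%, 19.6 to 23.04), potassium channel genes 6 of 24 (Kcnab3 highest, with 30 reads), cell adhesion receptor genes 5 of 18 (Cdh15, with 22) and olfactory receptor genes 2 of 3. MicroRNA genes had 22 of 154 (14.3%), solute carriers 27 of 199 (13.6%, Slc24a3 with 40 after Slc4a1) and Rik clones 82 of 718 (11.4%).

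Other families had lower shares. Zinc finger genes named Zfp had 20 of 292 (6.85%, 4.23 to 10.4), led by Zfp36, a gene of the CCCH type of zinc finger, with 130 control reads, Zfp703 with 49 beside a shared region of 94 knockout and 199 control reads, Zfp867 with 36 and Zfp764 with 31. Ribosomal protein genes had 6 of 166 (3.61%, 1.34 to 7.70), led by Rpl8 with no knockout peak and 71 control reads beside a shared region of 33 and 37. The histone name pattern found 3 of 72, H2ac10, the variant histone gene H2az1 and the pseudogene H2af-ps2 (10 reads). Transfer RNA genes had 7 of 258 (2.71%, 1.10 to 5.51), from n-TLcaa2 with 74 reads and n-TStga2 with 68 to n-TGgcc11 with 10, in families of near-identical copies. Protocadherin genes had 1 of 26 (Pcdh1, 24 reads). Small nucleolar RNA genes found by a name pattern had none of 38 (exact upper limit 9.25%). By annotated type, however, 9 of 89 listed small nucleolar RNA genes had a member (10.1%). The intervals of the Zfp, ribosomal, transfer RNA and name-pattern small nucleolar RNA families lay below the 11.2% of all genes. Those of Gm and Hox genes (35.9 to 99.6 for Hox) lay above it. The intervals of the other families and lists given here included it. None of these shares was matched for height. Hox regions of the control list had 10 to 29 control reads, and Gm members a median of 15. Over all gene ends, 56.7% of regions with 11 to 15 reads and 35.3% with 16 to 23 were absent from the knockout list. The Hox interval counts Hoxa5 and Hoxa6 as 2 genes, though they lie at 1 region.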

How the data were processed

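Single ATAC-seq peak lists of 1 knockout and 1 control library were analysed. The authors called peaks per sample; Trimmomatic 0.39, Bowtie2 2.4.4, Picard 2.26.2, deepTools 3.5.1, MACS2 2.2.7.1 and mm10 are named without roles or settings, per the submitters' processing notes. The deposited values are a score, which was not used, a fold enrichment (a ratio of summit pileup to local background), and −log10 p-values and −log10 q-values. Summit reads and backgrounds were recovered from the deposited fold and −log10 p as whole numbers within a relative misfit of 1e-05, for 99.99% of the peaks of each list; tested on simulated peaks, 1997 of 1997 knockout and 1996 of 1996 control values came back. Read extension, duplicate and blacklist treatment are not given in the sources used here, total reads were not analysed, and absolute depth is unknown.

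Peaks sharing 1 bp were merged on autosomes. Places came from RefSeq GRCm38.p6 gene spans, and starts, strand, CpG and motifs from its promoter windows of 300 bases, which cover 25748 of 47042 genes and not chromosome 18. A gene of unknown strand is one without a window. Heights and widths of shared regions are those of the highest-ranked control peak. Intervals are 95%, exact Clopper-Pearson or Poisson. The tools were pandas 2.3.3, SciPy 1.17.1, NumPy 2.4.6, matplotlib 3.10.9 and Python 3.11.15. Named are the 25 members of highest −log10 q, list genes with a member (in name-pattern families those of most reads), 10 genes with 2 members and the 3 regions on either side of 1 kb; members over 80 reads, the nearest knockout peaks and pairs of regions at 1 gene were named after their values were seen. Members and the 30 lists were chosen with earlier results of these data known; 1 list and 1 region are not reported here.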

Additional observations from a re-analysis of the deposited data

How the results depend on the processing

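Of 76 alternative values, 47 stayed within the main interval, or within 1.5 times the main count. With equal numbers of top peaks the control-only gene-end regions numbered 399, all above the knockout floor, with a median of 57 reads. This setting cut the knockout list too, so regions with a lower-ranked knockout peak counted as control-only. Among members 57 reads was the 96th percentile, so the 399 are not all members. They were 5.18% of the listed gene-end regions and 35.4% of control-only regions. Of them 80.2% lay at coding genes and 13.5% at a gene with a shared end region, and the CpG ratio was 0.715. With gene ends at 2.5 kb there were 2115 members, 1785 above the floor, and the shares of listed gene-end regions, of control-only regions and at a gene with a shared end region were 15.5%, 31.7% and 35.5%. At 500 bp these 3 shares were 9.93%, 15.96% and 14.6%. When peaks of both lists needed a −log10 q of 5 they were 10.5%, 22.5% and 18.5%, and the median was 19 reads. Here too a region with a weaker knockout peak counted as control-only. With coding genes alone they were 9.44%, 14.1% and 26.4%, and the CpG ratio was 0.666. Without regions of high local background, an alternative chosen after seeing the data, 15.3% of listed gene-end regions were members and 15.8% lay at a gene with a shared end region; this setting removes more shared regions than members. The span of the control peak alone, also chosen after seeing the data, gave 11.9% in place of 11.8%. In the 246 windows that hold the summit, the ETS, GATA and NFY letters stood in 12.6%, 11.4% and 38.6%. The cause of the other changes was not tested. No paired analysis was possible because each genotype has 1 library, and no replicate could be left out. Members below about 15 reads are near the listing limit of the shallower library.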
